A study of Mus musculus with 2 samples.

Results

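The 10 genes described here are forkhead transcription factors known from mesenchyme: Foxc1, Foxc2, Foxd1, Foxf1, Foxf2, Foxo1, Foxo3, Foxp1, Foxp2 and Foxp4. They were chosen by name, with earlier results of these data known. All 10 were found among the 13916 protein-coding genes of the authors' deposited comparison of distal with proximal regions. The samples were mouse limb-mesenchymal organoids, made from limb mesenchymal cells of Slc:ICR embryos and kept for 48 h in medium with Fgf8b and Wnt3a, which both groups shared. On day 2, 5 organoids from 4 surrogate cultures were frozen and cut into 10 µm sections. Photo-isolation chemistry, in which ultraviolet light frees cDNA made inside the section, was aimed at 5 distal areas for the first group and 5 proximal areas for the second. The 5 barcoded regions of a side went into 1 library, so side and library cannot be told apart, and p-values measure the spread between regions of the same 2 libraries.

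Forkhead proteins bind DNA through a winged helix domain, whose recognition helix lies in the major groove. FoxC and FoxF proteins act in mesoderm and its vessels and connective tissues, and FoxF genes respond to Hedgehog signals in visceral mesenchyme. FoxO proteins are held in the cytoplasm after AKT phosphorylates them and otherwise activate genes for cell cycle arrest and stress resistance. FoxP proteins form dimers and mostly repress transcription, and in the skeleton they bind Runx2 during endochondral bone formation.

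Foxp1 and Foxp2 were the only called genes of the 10, and both were higher in proximal. The third FoxP gene, Foxp4, was not called.

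Foxp1 (ENSMUSG00000030067, chr6:98925338-99522721, minus strand) encodes a repressor with roles in heart, blood, motor neurons and cartilage. It had a mean normalized count of 53.3 per region in distal and 114 in proximal, computed from the authors' deposited table. Proximal was 2.14-fold higher, with a 95% interval of 1.61 to 2.84. The authors' deposited table gave a log2 change of -1.10 (SE 0.21, 5 regions a side) and an adjusted p of 4.59e-05 in its DESeq2 columns. By p-value Foxp1 ranked 39 among all genes of the authors' deposited table. In counts, about 156 distal and 1102 proximal counts stood behind it, so 12.4% of its counts were distal (exact binomial 95% interval 10.6 to 14.3%). Distal regions held 23.3% of the summed size factors, which is the share a gene with equal levels would have. In such bulk regions, fewer cells of a type and less RNA per cell cannot be told apart. Muscle markers also stood higher in proximal, at a summed 99.96 against 9.99 normalized counts over 8 genes. Actc1 alone held 71.5 of the proximal and 8.27 of the distal sum. The part of these markers in the result was not tested.

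Foxp2 (ENSMUSG00000029563, chr6:14901349-15441977, plus strand), known for its part in speech and motor circuits and also active in lung and skeletal mesenchyme, was shifted further. Its mean normalized count was 18.5 per region in distal and 49.8 in proximal, computed from the authors' deposited table. Proximal was 2.70-fold higher (95% interval 1.81 to 4.02). The log2 change in the authors' deposited table was -1.43 (SE 0.29, 5 regions a side), with an adjusted p of 0.000263 and rank 54 by p-value. About 54.0 distal and 481 proximal counts lay behind it, a distal share of 10.1% (7.67 to 13.0%). Foxp1 and Foxp2 lie on the same chromosome but are not neighbours.

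Foxp4 (ENSMUSG00000023991, chr17:47867133-47924645, minus strand), a partner of the other FoxP proteins in lung and gut, had mean normalized counts of 29.4 in distal and 25.2 in proximal. The authors' deposited table gave it a log2 change of 0.22 (SE 0.23) and an adjusted p of 0.991. Its 95% interval, -0.22 to 0.66, did not reach those of Foxp1 (-1.51 to -0.69) or Foxp2 (-2.01 to -0.86). The difference between these genes was not tested. About 86.1 distal and 243 proximal counts stood behind Foxp4, against 54.0 and 481 behind Foxp2. At the standard error of Foxp4 a log2 change of 0.79 would have been enough for a call.

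**Figure D1:**
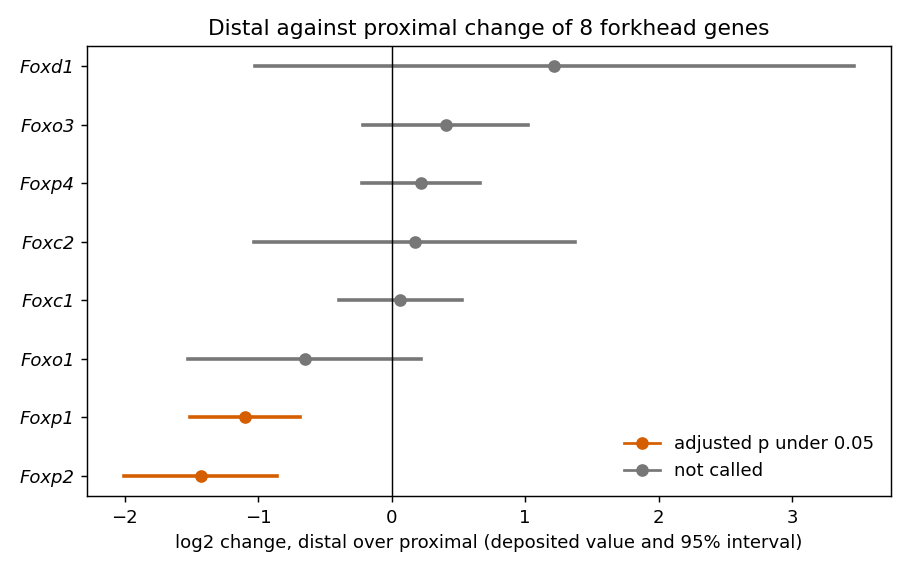
Deposited log2 change of distal over proximal (points) with its 95% interval (lines) for the 8 forkhead genes that had more than 3 counts on either side. The intervals of Foxp1 and Foxp2 (orange, adjusted p under 0.05) lie wholly below 0, while those of the other 6 genes (grey) cross 0.

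The 2 calls among 10 genes compare with a background of 0.977% of genes called in either direction and 0.582% called as higher in proximal. Since the 10 genes were chosen with earlier results of these data known, this comparison does not measure enrichment. Where only genes whose mean reached 10 were counted, as 5 of the 10 did, the background was 3.03%. At an unadjusted p under 0.05 the same 2 genes passed, both higher in proximal, against 6.07% of all genes (3.51% higher in proximal and 2.56% higher in distal). The median log2 change of the 10 genes in the authors' deposited table was 0.20, beside 0.07 for all genes. Foxp1 and Foxp2 stayed called under all 6 alternative call rules.

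Reads of Foxp1 share a locus with another annotated gene. Gm20696 overlaps it in exons on the same strand and matched the last 300 bases of a Foxp1 transcript with a minimum of 200 aligned bases and 95% identity. Gm20696 had a mean of 0.285 in the authors' deposited table, so few counts were assigned to it, and how shared reads were counted is not given in the sources used here. None of the other 9 genes had such a match. Genes on the opposite strand overlap exons of Foxo1 (Gm20402), Foxf1 (Gm27530) and Foxf2 (Gm27516), and without a stated strand setting reads from the shared bases cannot be told apart. The antisense gene Gm15556 overlaps Foxp4 outside exons.

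Foxp1 can start at several places, and the deposited table gives 1 value for them all. RefSeq promoters on GRCm38, 250 bases before to 50 after a start, were matched for 7 of the 10 genes, with 9 promoters; Foxc2, Foxf1 and Foxp2 had no entry. The 3 promoters of the called gene Foxp1 and that of the uncalled Foxp4 are shown 5′ to 3′, with the core forkhead letters TGTTT, on either strand, in capitals.
Foxp1 (chr6:99520944-99521243, minus strand): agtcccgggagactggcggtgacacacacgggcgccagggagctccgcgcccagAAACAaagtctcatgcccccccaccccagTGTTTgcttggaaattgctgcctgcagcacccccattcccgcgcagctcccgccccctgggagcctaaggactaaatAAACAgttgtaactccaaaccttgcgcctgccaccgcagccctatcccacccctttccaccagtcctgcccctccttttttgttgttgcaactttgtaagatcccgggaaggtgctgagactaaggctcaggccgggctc
Foxp1 (chr6:99266466-99266765, minus strand): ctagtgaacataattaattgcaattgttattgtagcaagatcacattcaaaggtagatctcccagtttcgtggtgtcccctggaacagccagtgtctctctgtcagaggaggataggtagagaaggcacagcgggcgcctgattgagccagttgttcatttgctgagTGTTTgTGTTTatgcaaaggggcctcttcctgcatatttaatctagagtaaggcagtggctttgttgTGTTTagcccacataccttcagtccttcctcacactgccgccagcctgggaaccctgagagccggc
Foxp1 (chr6:99028249-99028548, minus strand): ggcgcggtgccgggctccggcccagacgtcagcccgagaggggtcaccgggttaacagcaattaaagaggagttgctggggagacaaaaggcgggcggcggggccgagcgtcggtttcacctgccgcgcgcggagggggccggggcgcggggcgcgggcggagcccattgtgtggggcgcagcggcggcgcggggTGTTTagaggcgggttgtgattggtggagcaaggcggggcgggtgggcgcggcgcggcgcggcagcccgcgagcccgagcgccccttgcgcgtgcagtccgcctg
Foxp4 (chr17:47924583-47924882, minus strand): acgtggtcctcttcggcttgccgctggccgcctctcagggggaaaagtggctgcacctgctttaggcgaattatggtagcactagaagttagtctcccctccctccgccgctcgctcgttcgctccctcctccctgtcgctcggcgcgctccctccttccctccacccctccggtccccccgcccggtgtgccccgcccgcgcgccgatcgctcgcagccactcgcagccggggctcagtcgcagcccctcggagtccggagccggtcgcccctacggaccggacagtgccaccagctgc
The 3 Foxp1 promoters held 3, 3 and 1 matches in the order shown, and the Foxp4 promoter 0. Of all 32851 RefSeq promoters 50.5% held TGTTT, and 4 of the 9 promoters of these genes did. The longer forkhead site TGTTTAC was in 3.65% of all promoters and in 0 of the 9. These were 2 of 11 motifs searched on both strands, and TGTTT was picked last, after the promoters had been seen. Of the 9 promoters, 1 held TGTTTGC (5.07% of all promoters), 1 TAATTA (5.29%), 1 AACAAT (10.7%), 1 CGTAAA (3.03%), 1 TTTATG (11.9%) and 1 TTTAC (31.5%). None held CACGTG (7.15%), TGGGTGGTC (0.253%) or TTTACGA (0.597%). TGTTT lies within TGTTTAC and TGTTTGC, and TTTAC within TGTTTAC and TTTACGA. The Foxp1 promoters also differed in CpG dinucleotides, with 13, 5 and 44 in the order shown, against 33 for Foxp4 and a median of 7 over all promoters.

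Foxc1 and Foxc2, which act together in somites, vessels and early cartilage, were not called. Foxc1 (ENSMUSG00000050295, chr13:31806633-31812476, plus strand) had mean normalized counts of 86.0 in distal and 82.2 in proximal. The authors' deposited table gave a log2 change of 0.06 (SE 0.24, adjusted p 0.991), a value that fell to -0.0028 when centred on the median of all genes. Its 95% interval of -0.40 to 0.53 leaves room for differences of less than 1 log2 unit on either side. Foxc2 (ENSMUSG00000046714, chr8:121116171-121118895, plus strand) had mean normalized counts of 6.66 in distal and 5.92 in proximal. Its log2 change in the authors' deposited table was 0.17 (SE 0.61, adjusted p 0.991). About 19.5 distal counts lay behind Foxc2, and its 95% interval ran from -1.03 to 1.37.

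The FoxC genes had wide errors for their depth. The authors' deposited table gave Foxc1 a standard error above those of 95% of the 200 genes nearest in mean, whose median was 0.16. For Foxc2 this share was 98%, with a median of 0.501 among its neighbours in mean. Counting error alone would give Foxc1 a standard error of 0.10, which is 19.6% of its variance. The dispersion implied by the deposited standard error corresponded to a coefficient of variation of 23.0% for Foxc1 and 52.2% for Foxc2, beyond counting error. This is the dispersion of the authors' fit, which may draw on other genes, and not a spread measured between regions. Foxp4 stood at the other end, with a standard error above only 0.5% of its 200 nearest genes and a coefficient of variation of 14.5%. Foxp1 and Foxp2 lay above 89.5% and 93.5% of theirs, with coefficients of 18.2% and 22.4%. Which regions carried the spread of these genes was not recovered.

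**Figure D2:**
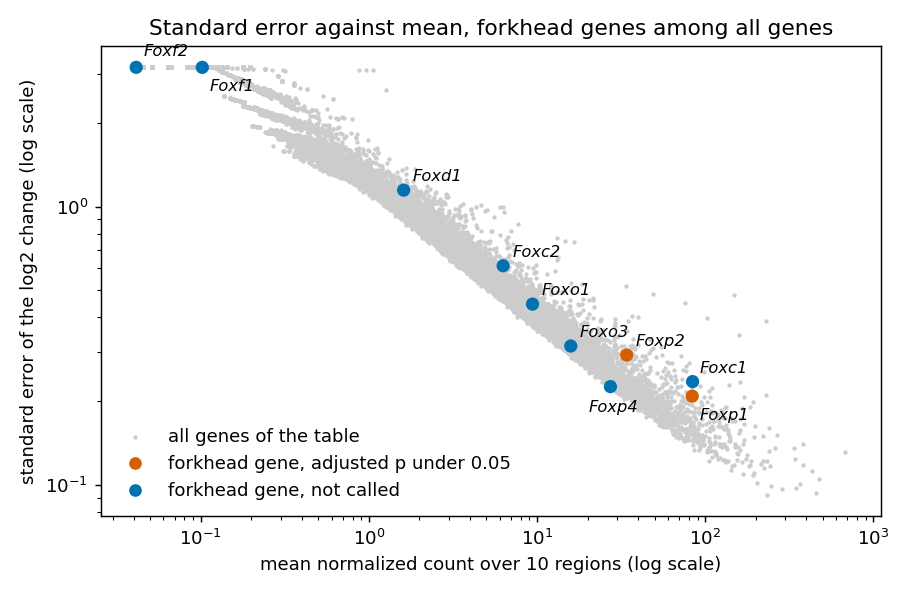
Standard error of the log2 change against the mean normalized count over 10 regions, both on log axes, for all genes of the table (grey) and the 10 forkhead genes (orange, called; blue, not called). Foxc1 and Foxc2 sit near the upper edge of genes of like mean and Foxp4 at the lower edge.

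The FoxO genes pointed in different directions and neither was called. Foxo1 (ENSMUSG00000044167, chr3:52268336-52353221, plus strand) had mean normalized counts of 7.31 in distal and 11.5 in proximal. The authors' deposited table gave it a log2 change of -0.65 (SE 0.45), with an unadjusted p of 0.144 and an adjusted p of 0.991. Foxo3 (ENSMUSG00000048756, chr10:42181841-42276755, minus strand) had 18.1 in distal and 13.7 in proximal. Its log2 change in the authors' deposited table was 0.40 (SE 0.32), with an unadjusted p of 0.201 and an adjusted p of 0.991. At these standard errors a call needed a log2 change of 1.56 for Foxo1 and 1.11 for Foxo3. About 21.4 distal counts stood behind Foxo1 and 53.0 behind Foxo3.

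**Figure D3:**
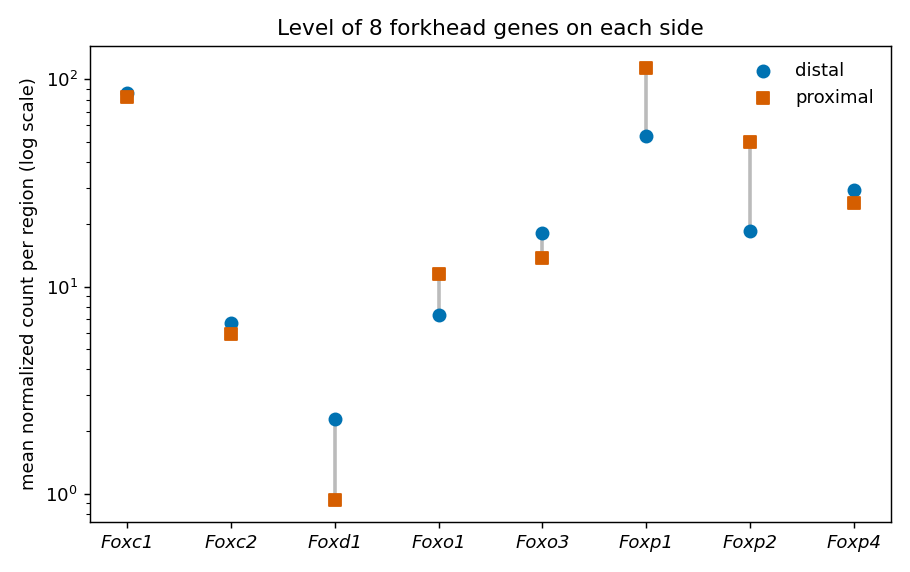
Mean normalized count per region in distal (blue circles) and proximal (orange squares) for 8 forkhead genes, on a log axis, computed from the deposited mean and log2 change, or from recovered region counts for Foxd1. The gap between the sides is widest in counts for Foxp1 and Foxp2, and the points of Foxc1 nearly coincide.

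Foxd1, Foxf1 and Foxf2 had so few counts that the count in each region could be read back from the deposited values. Foxd1 (ENSMUSG00000078302, chr13:98354242-98359305, plus strand) marks stromal progenitors of the kidney and part of the retina. It had 6 distal counts, spread as 0, 2, 2, 1 and 1, and 9 proximal counts, spread as 1, 0, 7, 0 and 1, each in order of falling region size factor. Divided by the size factors, the distal regions ranged from 0 to 3.58 and the proximal regions from 0 to 3.58, so the sides overlapped. In 4 of 5 distal regions the normalized count was at least 1.96, and in 4 of 5 proximal regions it was at most 0.666. Depth enters this contrast. A single count gave 1.96 or 3.04 in the distal regions that held 1, and 0.414 or 0.666 in the proximal regions that held 1. The means were 2.29 ± 1.41 in distal and 0.932 ± 1.51 in proximal (SD, 5 regions each). The authors' deposited table gave a log2 change of 1.22 (SE 1.15) and an adjusted p of 0.991. From the region counts distal was 2.46-fold higher, and leaving out any 1 region other than the proximal one of 7 counts gave 1.97-fold to 3.07-fold. Without that proximal region the value was 8.48-fold, but the proximal side was then left at 3 counts or fewer, too few for a reliable fold.

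This reading of Foxd1 was the best of 22 sets of region counts that matched its mean. A refit of that set gave the deposited log2 change to within 1.33e-06, and the next best set missed it by 0.36. The same refit met the deposited log2 change to within 0.0001 for 38 of 38 other genes on which it could be checked.

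Foxf1 and Foxf2, the Hedgehog-responsive genes of gut, lung and palate mesenchyme, were close to absent. Foxf1 (ENSMUSG00000042812, chr8:121084386-121088144, plus strand) had 2 counts in 1 proximal region and 0 elsewhere. Foxf2 (ENSMUSG00000038402, chr13:31625816-31631403, plus strand) had 1 count in 1 proximal region and 0 elsewhere. The authors' deposited table gave them positive log2 changes of 0.60 and 1.19, each with an SE of 3.16, although both genes had only proximal counts, so the sign gave no direction. Both sides stood at 3 counts or fewer, no fold is given, and this depth could not show a difference. The floor of 3 counts over all distal regions corresponds to a mean normalized count of 1.02.

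**Figure D4:**
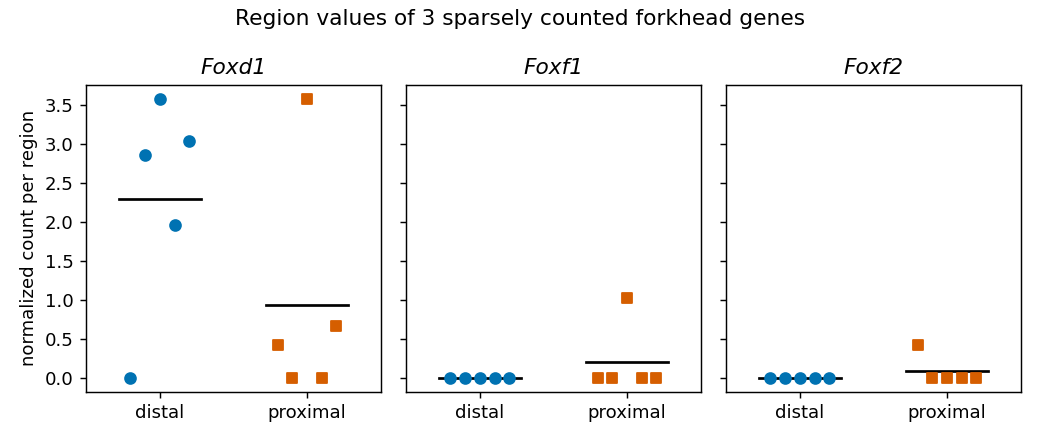
Normalized count in each of the 5 distal (blue) and 5 proximal (orange) regions for Foxd1, Foxf1 and Foxf2, with lines at the means. For Foxd1, 1 proximal region reaches 3.58 while the other 4 lie at 0.666 or below, and for Foxf1 and Foxf2 a single proximal region holds all counts.

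Several of these genes are neighbours in the genome, and the neighbours differed in level. On chromosome 13 Foxf2 lies 175 kb from Foxc1 and 64.8 kb from Foxq1. Per kb of exon, the mean normalized count was 14.4 for Foxc1 and 0.0175 for Foxf2, computed from the authors' deposited table and GENCODE M21. Foxq1 had 4 counts, all in 1 proximal region. On chromosome 8 Foxf1 lies 28.03 kb from Foxc2, and per kb of exon the levels were 0.0423 for Foxf1 and 2.31 for Foxc2. In both places the FoxC gene was detected in far more reads than the FoxF gene beside it. Per kb of exon, the other levels were 6.09 for Foxp1, 5.54 for Foxp4, 2.10 for Foxo3, 2.09 for Foxp2, 1.08 for Foxo1 and 0.318 for Foxd1. Exonic length covers all annotated transcripts and may overstate that of the isoforms in use, most of all for Foxp1 and Foxp2. Whether counts grow with exonic length in these libraries was not tested, so levels per kb may misorder the genes. Undivided, the mean was 34.1 for Foxp2 and 27.3 for Foxp4, the reverse of their order per kb. The undivided means were 84.1 for Foxc1 and 0.0414 for Foxf2, and 6.29 for Foxc2 and 0.102 for Foxf1.

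Of the rest of the family, values were given for 16 of 34 listed forkhead genes, and 0 were called. At an unadjusted p under 0.05 there was 1, Foxn2, which the authors' deposited table lists with a log2 change of -1.27 (SE 0.58, adjusted p 0.716). The 5 with the highest means in the authors' deposited table were Foxn3, Foxk2, Foxj3, Foxk1 and Foxm1. Foxn3, a checkpoint repressor, had a mean of 71.1 and a log2 change of -0.07 (SE 0.17) in the authors' deposited table. Foxm1, which drives genes of mitosis, had a log2 change of 0.53 (SE 0.38) in the authors' deposited table. The log2 changes of Foxk2, Foxj3 and Foxk1 in the authors' deposited table were 0.0077, -0.43 and -0.72, that of Foxk2 turning negative on centring. The median over the 16 was 0.13, and -0.03 for the 8 with a mean of at least 1. The other 8 had 1 to 6 counts each, with 19 proximal counts and 1 distal count in all.

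Lists of genes that regulate FoxO proteins or answer to them held no call, beside 0.977% of all genes called. Of 23 FoxO regulators, from receptors through AKT to export and acetylation, 0 were called, and 1 had an unadjusted p under 0.05. That gene was Igf1r, the IGF1 receptor, for which the authors' deposited table lists a log2 change of 0.49 (SE 0.16, adjusted p 0.146). With p adjusted over only the genes whose mean reached 10, Igf1r was called. The 3 with the highest means in the authors' deposited table were Ywhae and Ywhaz, which encode 14-3-3 proteins that retain FoxO in the cytoplasm, and Igf1r. Ywhae had a log2 change of 0.05 and Ywhaz one of -0.01 in the authors' deposited table. Of 20 FoxO targets 0 were called, and 1 had an unadjusted p under 0.05. That gene was Sesn3, a stress-induced regulator of mTORC1, for which the authors' deposited table lists a log2 change of -0.57 (SE 0.23, adjusted p 0.499). For the cell cycle brakes Ccng2 and Cdkn1b the authors' deposited table lists log2 changes of -0.19 and -0.16. The medians were 0.05 for the regulators and -0.15 for the targets, beside 0.07 for all genes.

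FoxP proteins recruit the NuRD complex and CtBP corepressors and bind Runx2. Of 13 partners with a value, 0 were called, beside 0.977% of all genes. The deacetylase gene Hdac2 had a log2 change of 0.15 (SE 0.15), while the NuRD subunit genes Gatad2b and Rbbp7 stood at -0.11 and -0.28 in the authors' deposited table. Over the 13 the median was 0.15.

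The Hedgehog pathway, which acts upstream of several forkhead genes, was the only one of the 4 pathway lists with calls. Of its 12 genes with a value, 3 were called, all higher in proximal, beside 0.582% of all genes called in that direction and 3.03% called either way where the mean reached 10. This list too was chosen with earlier results of these data known, so the comparison does not measure enrichment. The 3 called genes encode Hedgehog co-receptors at the cell surface. Gas1 had mean normalized counts of 77.4 in distal and 257 in proximal, and the authors' deposited table lists a log2 change of -1.73 (SE 0.14, adjusted p 4.65e-31). For Cdon the authors' deposited table lists -1.07 (SE 0.24, adjusted p 0.00152), and for Boc -0.80 (SE 0.18, adjusted p 0.00255). The target and receptor gene Ptch1 was not called, and the authors' deposited table lists a log2 change of 0.62 (SE 0.32, unadjusted p 0.0525, adjusted p 0.948). The transducers Gli3 and Gli2 had 0.19 and 0.09, and Smo had -0.46, none of them called in the authors' deposited table. Means of the other target genes were low in the authors' deposited table, at 0.625 for Gli1 and 4.58 for Hhip. The median of the 12 genes was 0.01, and -0.46 for the 7 whose mean reached 10.

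**Figure D5:**
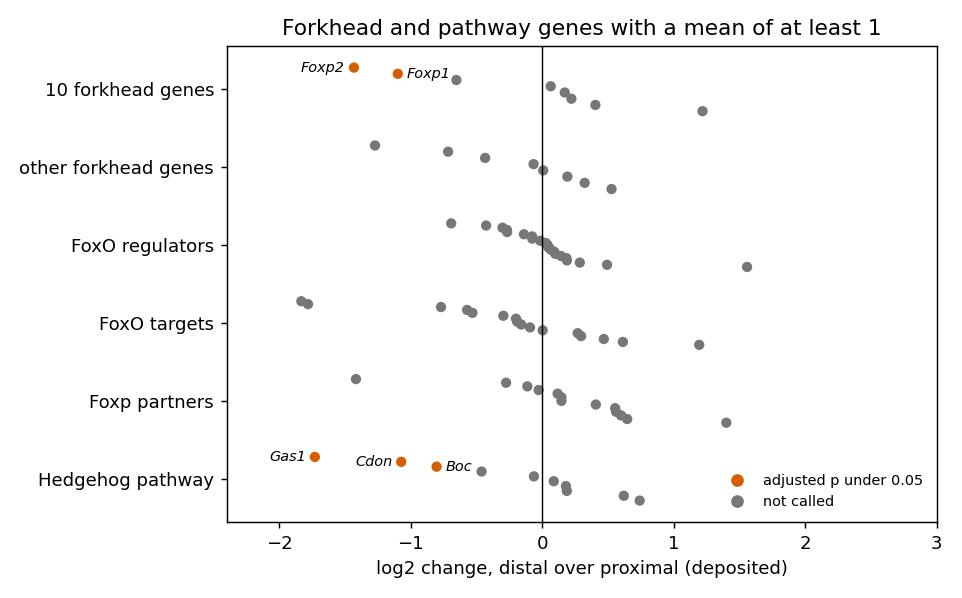
Deposited log2 change of distal over proximal for each gene with a mean of at least 1 in the forkhead and pathway lists. Called genes are orange and named, and the only ones are Foxp1, Foxp2, Gas1, Cdon and Boc, all left of 0.

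Markers of other cell types were read beside these results. All 8 limb mesenchyme markers had a value, with means in the authors' deposited table of 158.96 for Prrx1, 126.4 for Vim, 120.8 for Msx1, 99.2 for Pdgfra, 73.99 for Twist1, 21.5 for Tbx5, 14.7 for Prrx2 and 1.08 for Pitx1. In the authors' deposited table Pdgfra (-0.86) and Tbx5 (-1.41) were called as higher in proximal and Msx1 (1.12) as higher in distal, out of 8 such markers. Of 8 muscle markers 3 were called, Actc1, Myl1 and Myog, all higher in proximal. Pax7 had no more than 3 counts on either side. The smooth muscle and pericyte markers summed to 33.5 in distal and 55.5 in proximal, with Acta2 (-4.22 in the authors' deposited table) called among 5. Acta2 alone went from 1.33 in distal to 24.9 in proximal, while the authors' deposited table lists positive values for Pdgfrb (0.03, negative on centring), Cspg4 (0.21) and Rgs5 (1.198). Tagln pointed the same way as Acta2, at -1.16 (SE 1.18) in the authors' deposited table, and was not called. The cartilage markers summed to 1363 in distal and 972 in proximal, with Sox9 (0.69 in the authors' deposited table) called among 7. Sox9 held 842 of the distal and 522 of the proximal sum, while Acan (-1.57, unadjusted p 0.0345) and Hapln1 (-1.18) had negative log2 changes in the authors' deposited table. The part of muscle, smooth muscle or cartilage cells in the values of Foxp1 and Foxp2 was not tested. Endothelial markers, of interest for Foxc1, Foxc2, Foxf1 and Foxo1, were near 0 and none was called. They held 9 distal and 15 proximal counts over 7 genes, or a summed 2.93 and 1.55 normalized counts. Blood markers had 2 distal and 26 proximal counts over 3 genes, or a summed 0.678 and 2.69 normalized counts. Surface ectoderm markers had 3 and 11 counts over 5 genes, or a summed 1.29 and 1.17. Distal regions were the shallower, so these raw counts alone give no direction. Nerve and Schwann cell markers summed to 3.20 in distal and 5.09 in proximal over 5 genes, with none called.

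Depth differed between the sides. The size factors ranged from 0.329 to 0.832 in distal and from 1.502 to 2.42 in proximal. Over the listed genes they correspond to 46991 to 118978 counts per distal region and 214774 to 345649 per proximal region. Among the 8 genes above the floor, distal counts of 6 to 252 stood against proximal counts of 9 to 1102. Counting error made up 19.6% (Foxc1) to 64.1% (Foxp4) of the variance of the log2 change for these 8 genes.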

How the data were processed

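Distal and proximal regions of organoid sections were captured by photo-isolation chemistry and sequenced on an Illumina instrument, per the labels' protocols. The file used was the authors' deposited comparison, with 1 line per protein-coding gene. Its column names match a DESeq2 results table, per the file headers. The mean is a signal, the normalized count the authors averaged over all regions. The log2 change (positive when higher in distal) and its standard error are on the authors' log2 scale. The deposited statistic is a score, the change divided by its error. The p-value and adjusted p-value are the authors' deposited values. The submitters' processing notes name mm10 and GRCm38; aligner and counting are not given in the sources used here.

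A gene was called at a deposited adjusted p under 0.05. No count test was run, since no value per region is in the table used. The 10 size factors were read from means shared by at least 20 genes and no sum of lower ones. Counts per side were computed from mean, log2 change and size factors. In data simulated from the genes of the table, 9 of 10 size factors were recovered. All 10 were recovered once rarely seen genes had been added to the simulation, a change made after that first result. In this second simulation, over 5900 genes with a mean above 5 side counts had a median error of 3.87% in distal and 2.58% in proximal. Region counts were recovered from means up to 1.2 (1 matching set for 4594 of 4624 genes) and for Foxd1, whose inclusion and wider tolerance on the mean (2e-07 against 3e-08) were chosen after its values were seen. Refits held fitted means at 0.5 or more. A side at 3 counts or fewer counted as at the floor. The 95% intervals of changes are normal intervals from the deposited error. Intervals on distal shares of counts are exact (Clopper-Pearson) and cover counting error only. The floor is a fixed limit of 3 counts and not an exact interval. Positions are from GENCODE M21 and copies were sought with BLAST 2.17.0. Python 3.11.15, pandas 2.3.3 and scipy 1.17.1 were used.

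The members and lists were chosen with earlier results of these data known. Named are all 10 genes. Of the other forkhead genes, those with an unadjusted p under 0.05 and the 5 with the highest means are named. Of the pathway lists, called genes or else the 3 with the highest means are named. Other genes were named after their values were seen, among them Ptch1, Gli1, Gli2, Gli3, Hhip, Smo, Foxq1, Gm20696, Pax7, Acan, Hapln1, Pdgfrb, Cspg4, Rgs5, Tagln, the uncalled limb mesenchyme markers and the partners first named in the closing section. All 11 motifs were chosen with these data in view. A result on 1 partner of FoxP proteins and a comparison of coding sequences are not reported here. Alternatives were other call limits, other adjustments, centring, a minimum change, filters on the mean and side counts held at 3 or more.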

Additional observations from a re-analysis of the deposited data

Results flagged for a closer look

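For all 3 forkhead genes whose region counts were recovered, a single region stood far from the other 4 of its side. Its gap lay beyond Dixon's 95% limit of 0.71 for 5 values. Chance alone passes that limit in about 1 of 20 groups of normally distributed values. That rate need not hold for counts as low as these, those of Foxd1 included. For Foxd1 a proximal region with 7 counts reached a normalized count of 3.58, with a gap of 0.814 of the whole range. For Foxf1 a proximal region with 2 counts gave 1.02, and for Foxf2 a proximal region with 1 count gave 0.414, all other regions being at 0. The Foxd1 and Foxf1 values came from the same proximal region, the one of size factor 1.96. For Foxf1 and Foxf2 this was fixed by all counts falling in 1 region, so it carries no further information.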

How the results depend on the processing

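Foxp1 and Foxp2 were called, and no other of the 10 forkhead genes was, with adjusted p limits of 0.01 and 0.1, with adjustment over the table's genes or over those whose mean reached 10, with log2 changes centred on the overall median, and with a log2 change of at least 1. Gas1 and Cdon were called under the same 6, and Boc under all but the minimum change. Adjustment over the genes whose mean reached 10 called 1 FoxO regulator, Igf1r, in place of 0, which follows from fewer genes tested. Centring reversed Foxc1, to -0.0028. The median log2 change of the other forkhead genes reversed to -0.029 at a mean of at least 1 and -0.25 at a mean of at least 10, and that of the Hedgehog genes to -0.46 at a mean of at least 10, the filters leaving fewer genes. Leaving out each region in turn, added after seeing the data, moved the log2 ratio of Foxd1 from region counts, 1.30, to between 0.98 and 3.08. The highest came without the proximal region of 7 counts, which left the proximal side at 3 counts or fewer. Steps shared by at least 10 genes gave the same 10 size factors, and steps shared by at least 50, also added later, gave 8. Of 90 values under an alternative, 83 kept their direction and, for single values, their side of the limit, or, for counts of calls, stayed within 1.5 times (Hedgehog genes went from 3 to 2 with the minimum change). Some of these could not have differed. Holding side counts at 3 or more returned the deposited log2 change for Foxc1, Foxc2, Foxo1, Foxo3, Foxp1, Foxp2 and Foxp4. Their side counts had been computed from that change, so these values carry no further information. No paired analysis was possible because values per region are missing from the table used, and so leaving out each region was not run for the other genes. Distal counts were fewer than proximal counts for each of the 10 genes.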

Other observations

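Some partners of FoxP proteins had log2 changes towards distal that missed the call, a group picked after the values were seen. In the authors' deposited table these were 0.65 for Gatad2a, 0.60 for Runx2, 0.56 for Ctbp2, 0.55 for Hdac1 and 0.41 for Mta2, with unadjusted p-values from 0.0544 to 0.0758 and adjusted p-values of 0.953 or more. Other partners of the list had negative log2 changes in the authors' deposited table, -1.42 for Rbbp4 (SE 1.29), -0.28 for Rbbp7, -0.11 for Gatad2b and -0.03 for Chd4. Foxp1 and Foxp2 were called as higher in proximal, and the difference between partners and FoxP genes was not tested.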
